A study of Homo sapiens with 14 samples.

Results

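The 39 genes described here are the enzymes and transporters that carry glucose to lactate, the enzymes that decide whether pyruvate enters mitochondria, and genes of the cellular response to low oxygen. They were chosen by symbol with earlier results of these data known, so their counts beside the shares of all genes are descriptions. Each symbol matched 1 of the 60683 Ensembl gene identifiers counted in every library. The genes fall into 22 of transport and glycolysis up to lactate export, 3 of the pyruvate dehydrogenase gate, 4 of the machinery of the hypoxia-inducible factors (HIF), and 10 further targets of these factors. Genes in the other groups can be HIF targets as well, and HIF targets below means these 10 only. All 39 passed the filter on low counts in each of the 3 models fitted, so none was lost for low expression.

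Glycolysis splits glucose into pyruvate in the cytosol, and cancer cells often turn much of that pyruvate into lactate even when oxygen is plentiful. Its rate is set mainly at glucose entry, at hexokinase and at phosphofructokinase. When oxygen is low, the HIF alpha subunits escape the prolyl hydroxylases that mark them for destruction. They then pair with a constitutive partner and bind short promoter words with the core ACGTG or GCGTG, many of them beside genes of glycolysis, acid-base balance, collagen processing and mitochondrial turnover. HIF alpha is controlled mostly at the protein level, which counts of RNA do not show.

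The study compared drugs that stop the cell cycle at the cyclin-dependent kinases CDK4/6 and CDK2. A549 is a lung cancer line grown in RPMI medium, and SUM159 a line of triple-negative breast cancer grown in DMEM/F12 medium with insulin and hydrocortisone. A549 was sequenced untreated, after 10 days of 2 μM palbociclib (a CDK4/6 inhibitor), after 10 days of 0.5 μM indisulam, after 10 days of both drugs at these doses, and after 7 days of 0.5 μM PF-06873600 (a CDK2/4/6 inhibitor). Indisulam is a molecular glue that sends the splicing factor RBM39 to degradation. SUM159 was sequenced untreated and after 7 days of 0.5 μM PF-06873600. Each of the 7 groups had 2 libraries, which the series describes as technical duplicates, so every p-value below measures only the spread between such duplicates. With 2 libraries per group, groups can also lie apart without a change, so lack of overlap is given below as a description. How many of all genes lacked overlap was not counted. When the untreated cells were harvested is not given, so days in culture and treatment cannot be told apart.

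The libraries held 13060374 to 21149256 counts on genes, and the smallest level a library could show, taken as 3 counts, was 0.142 to 0.230 CPM (counts scaled to a gene total of 1000000 per library). That limit covers counting error only. Duplicates of untreated A549 differed more than those of any other group, as their chi-square divided by its degrees of freedom was 10.0 against 1.63 for PF-06873600 in A549, with untreated SUM159 next at 9.35. A549 expressed the epithelial keratin KRT8 at a mean of 2126 CPM untreated, and its 5 lung alveolar markers summed to at most 4.25 CPM in any library, with SFTPB at 0 counts in both untreated libraries. SUM159 expressed the mesenchymal filament VIM at a mean of 4162 CPM and the epithelial cadherin CDH1 at 0.0905 CPM untreated. Its epithelial keratins KRT8 and KRT18 stood at 417 and 309 CPM, while EPCAM and KRT19 were at 0.641 and 0.430 CPM. On the mesenchymal and basal list, CDH2 and ZEB1 stood at 180 and 66.8 CPM, and the basal keratins KRT5 and KRT14 at 0.646 and 0.213 CPM. With PF-06873600 the 5 epithelial markers of SUM159 summed to 428 to 447 CPM, against 699 to 755 CPM untreated. Summed over 5 epithelial markers, A549 moved from 4672 to 5429 CPM untreated to 10066 to 10532 CPM with the combination and 11769 to 11845 CPM with PF-06873600, while EPCAM and CDH1 were no higher. The mesenchymal and basal list moved as well in A549, from 706 to 774 CPM untreated to 1895 to 1935 CPM with the combination and 1191 to 1226 CPM with PF-06873600, most of it VIM (mean 665, 1767 and 1110 CPM). In SUM159, 5 leukocyte and endothelial markers summed to 20.4 to 21.5 CPM untreated and 46.0 to 46.3 CPM with PF-06873600. These came from PTPRC and PECAM1, with CD3E at 0 counts. The part of these markers in the results below was not tested. In bulk RNA, fewer cells of a kind and less RNA per cell cannot be told apart.

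Promoter sequence was read for 36 of the members from RefSeq (GRCh38.p14). SLC2A3, BNIP3L and NDRG1 were not in that table. The 250 bases before each annotated transcript start were searched on both strands for the HIF core words ACGTG and GCGTG. A palindromic CACGTG, a word that MYC and other factors also bind, counts as ACGTG on both strands. Of 64 member windows, 60.9% held at least 1 core, against 43.2% of the 35116 windows of all genes. Windows are not separate genes, as a member with several starts, such as HK1 or PFKM, gave several windows, some of which overlap. No share per gene was counted. ACGTG alone was in 35.9% of member windows and 18.5% of all windows. The windows of 5 members that carry the contrasts described below are printed 5′ to 3′ on the coding strand, in lower case with the core words of either strand in capitals. PFKFB4 had the largest gain from combining the drugs among members well above the detection limit. ADM rose in both lines. HK2 moved in opposite directions in the lines. P4HA2 had the largest change with PF-06873600 in SUM159, and CA9 is a widely used hypoxia marker.
PFKFB4 (chr3:48556804-48557053, minus strand): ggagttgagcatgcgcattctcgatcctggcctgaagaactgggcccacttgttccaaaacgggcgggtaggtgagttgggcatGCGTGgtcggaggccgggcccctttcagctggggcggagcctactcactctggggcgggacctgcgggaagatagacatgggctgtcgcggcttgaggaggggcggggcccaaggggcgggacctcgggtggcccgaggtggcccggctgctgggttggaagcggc
ADM (chr11:10304823-10305072, plus strand): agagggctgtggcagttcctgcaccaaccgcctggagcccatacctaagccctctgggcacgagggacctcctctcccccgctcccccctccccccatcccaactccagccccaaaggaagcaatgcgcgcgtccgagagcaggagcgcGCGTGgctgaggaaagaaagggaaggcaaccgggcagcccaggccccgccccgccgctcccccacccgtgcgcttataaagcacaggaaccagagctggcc
HK2, upstream start (chr2:74833877-74834126, plus strand): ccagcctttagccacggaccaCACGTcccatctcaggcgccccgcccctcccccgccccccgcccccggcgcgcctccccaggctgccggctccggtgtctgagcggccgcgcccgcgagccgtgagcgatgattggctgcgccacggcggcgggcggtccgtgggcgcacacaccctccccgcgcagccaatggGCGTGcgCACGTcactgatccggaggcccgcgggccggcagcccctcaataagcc
HK2, downstream start (chr2:74834920-74835169, plus strand): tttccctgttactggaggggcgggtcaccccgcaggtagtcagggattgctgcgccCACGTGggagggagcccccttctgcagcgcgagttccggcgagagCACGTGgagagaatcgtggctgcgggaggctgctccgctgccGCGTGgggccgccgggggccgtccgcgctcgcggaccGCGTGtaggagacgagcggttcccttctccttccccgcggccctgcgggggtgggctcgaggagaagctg
P4HA2 (chr5:132227092-132227341, minus strand): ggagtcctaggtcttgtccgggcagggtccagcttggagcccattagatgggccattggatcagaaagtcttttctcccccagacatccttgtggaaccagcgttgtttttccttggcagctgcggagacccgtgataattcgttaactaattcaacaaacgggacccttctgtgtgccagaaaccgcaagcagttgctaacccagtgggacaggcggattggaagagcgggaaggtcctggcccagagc
CA9 (chr9:35673678-35673927, plus strand): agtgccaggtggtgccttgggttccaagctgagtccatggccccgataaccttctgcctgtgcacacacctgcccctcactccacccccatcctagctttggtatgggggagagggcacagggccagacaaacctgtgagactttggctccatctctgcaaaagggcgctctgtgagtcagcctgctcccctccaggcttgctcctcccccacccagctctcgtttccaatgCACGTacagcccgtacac
HK2 has 2 annotated starts, and its windows held 3 and 6 cores, some of the latter in palindromes counted on both strands. The windows of PFKFB4, ADM and CA9 held 1 each, and the P4HA2 window held 0. A match is a description of the letters only.

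**Figure D1:**
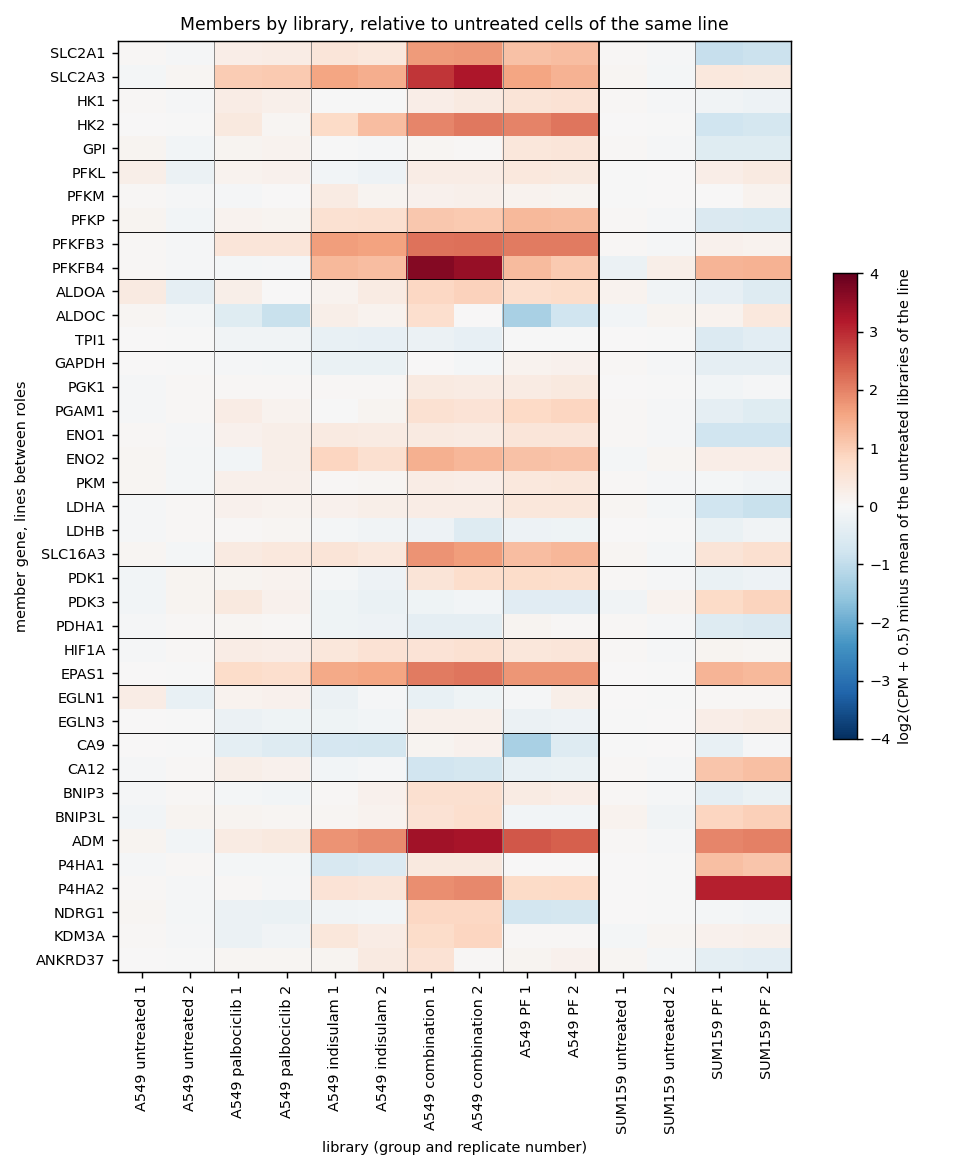
Each row is a member gene and each column a library, with colour for log2(CPM + 0.5) minus the mean of the untreated libraries of the same line, and black lines between roles. SLC2A3, PFKFB4 and ADM are darkest with the drug combination in A549 and P4HA2 with PF-06873600 in SUM159, while SLC2A1, HK2, PFKP, ENO1 and LDHA are red with the combination and PF-06873600 in A549 and blue with PF-06873600 in SUM159.

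The question put to untreated cells was which isoenzymes and which part of the pathway each line expressed. Compared per kilobase of exon, GAPDH was the highest member in both lines, at 2909 ± 73.1 (SD, n = 2) CPM per kb in A549 and 2190 ± 90.6 in SUM159. CA12, a membrane carbonic anhydrase, followed in A549 at 448 ± 17.9, close to PKM at 434 ± 35.4, and these neighbours differed by less than their spread. In SUM159 the enolase ENO1 came next at 746 ± 32.9, then LDHA at 427 ± 28.5 and PKM at 403 ± 21.8, again with overlapping spreads. In sum the members took 2.12% to 2.20% of all counts in untreated A549 and 2.09% to 2.23% in untreated SUM159. The lines therefore overlapped in the total and differed in its makeup.

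Of the 39 members, 23 were higher and 13 lower in untreated SUM159 than in untreated A549, where 41.9% and 36.8% of all genes tested were. With so many genes differing between lines, this count says little of the members as a group, but single isoenzymes were far apart. HK2, a hexokinase that is low in most adult tissues, stood at 0.612 and 0.600 CPM in A549 and 110.4 and 109 CPM in SUM159. The log2 difference was 7.48 ± 0.15 (SE, adjusted p = 4.78e-19; all adjusted p-values here are from edgeR's quasi-likelihood test with Benjamini-Hochberg adjustment over all genes). HK2 was thus close to the detection limit in A549, with 9 counts in each untreated library, and its share of the HK1 and HK2 level per kilobase was 0.710% there and 20.6% in SUM159. SLC2A3, the high-affinity glucose transporter GLUT3, stood at 1.90 and 2.20 CPM in A549 and 47.2 and 42.2 CPM in SUM159, a log2 difference of 4.44 ± 0.15. SLC2A3 has a near-identical neighbour, SLC2A14, so reads shared by both may have been set aside in counting, which was not measured. SLC16A3, which exports lactate as MCT4, was also higher in SUM159 by 3.0 ± 0.085 on the log2 scale.

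Among the genes lower in SUM159, CA12 differed most. It stood at 3045 and 3222 CPM in A549 and 244 and 226 CPM in SUM159, -3.74 ± 0.067 on the log2 scale. CA9, the other membrane carbonic anhydrase, went the other way, at 0.748 and 0.733 CPM in A549 and 9.05 and 9.27 CPM in SUM159 (log2 difference 3.61 ± 0.28). Of CA9 exon sequence, 35.7% overlaps ARHGEF39 on the opposite strand, and whether counting used strand is not given. PDK3 and PDK1, kinases that switch pyruvate dehydrogenase off, also changed places. PDK3 was -2.79 ± 0.12 and PDK1 1.51 ± 0.10 on the log2 scale in SUM159 against A549, and PDK1 made up 24.1% of their summed level per kilobase in A549 and 86.2% in SUM159. PFKFB3, which makes the activator of phosphofructokinase, and the enolase ENO2 were lower in SUM159, by -1.55 ± 0.063 and -1.41 ± 0.10, whereas PFKFB4 was higher by 2.79 ± 0.20. LDHB, the lactate dehydrogenase subunit that favours pyruvate, was lower (-1.19 ± 0.086) and LDHA higher (1.32 ± 0.06), with 33.4% of LDHB exon sequence shared with another gene on the same strand. P4HA1, EGLN3 and PKM did not pass the test, with log2 differences of 0.0048, -0.11 and -0.11.

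Palbociclib alone left most of the 39 members within the test's threshold. In A549 it raised 11 and lowered 1, against 8.3% and 7.4% of all genes tested, with a median log2 change of 0.127 over the members and -0.0056 over all genes. SLC2A3 was the single member that rose at least 2-fold, where 1.5% of all genes did, from 1.90 and 2.20 CPM untreated to 4.67 and 4.76 CPM (1.20 ± 0.23, adjusted p = 0.00229). EPAS1, which encodes HIF-2 alpha, rose from 162 and 158 to 269 and 254 CPM (0.71 ± 0.057), and PFKFB3 from 119 and 109.5 to 162 and 159.7 CPM (0.49 ± 0.058). The groups did not overlap for any of these 3 genes. They were also the only called members that kept the call under every alternative run. The other 9 (SLC2A1, HK1, ENO1, PKM, SLC16A3, PDK3, HIF1A, CA12 and NDRG1) had log2 changes within ±0.41 and lost the call in a model of only the palbociclib and untreated libraries, which called 3 members higher and 0 lower.

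Indisulam alone changed more members, 16 higher and 4 lower, against 28% and 17.5% of all genes. With TMM factors in place of total counts, 61.6% of all calls being higher became 50.4%, and 8 members were lower. Both members that act on fructose 2,6-bisphosphate rose. PFKFB3 went from 119 and 109.5 to 366 and 353 CPM (1.65 ± 0.058, adjusted p = 4.75e-11), and PFKFB4 from 1.90 and 1.80 to 5.25 and 5.09 CPM (1.48 ± 0.19). ADM, the vasodilator peptide adrenomedullin, went from 5.51 and 4.60 to 18.8 and 19.8 CPM (1.93 ± 0.12). EPAS1 rose to 459 and 479.9 CPM (1.55 ± 0.058), HK2 to 1.38 and 2.12 CPM (1.52 ± 0.35) and SLC2A3 to 7.19 and 6.41 CPM (1.72 ± 0.21), so that 6 members rose at least 2-fold, with none of the 6 overlapping the untreated libraries. That is 6 of 39, where 9.65% of all genes rose as much. The 4 members that fell did so by less than that, and were P4HA1 (-0.60 ± 0.067), TPI1 (-0.31 ± 0.052), GAPDH (-0.26 ± 0.053) and PDHA1 (-0.20 ± 0.057), of which PDHA1 lost the call without either indisulam library (adjusted p = 0.0551 and 0.0694). The higher calls of PFKM and LDHA were lost with TMM factors and with DESeq2 (adjusted p from 0.0587 for LDHA to 0.241 for PFKM over all alternatives that lost them).

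The combination moved the members further. Against untreated A549, 28 were higher and 4 lower, where 35.1% and 30% of all genes were, and 11 rose at least 2-fold, where 16.6% of all genes did. The median log2 change was 0.531 over the members and 0.052 over all genes. By group, 17 of 22 glycolysis members were higher and 2 lower (median 0.41), 7 of 10 HIF targets higher and 1 lower (median 0.64), 3 of 4 genes of the HIF machinery higher, and the pyruvate dehydrogenase gate had 1 higher and 1 lower. These comparisons share the untreated A549 libraries, as does that of PF-06873600, so their values stand side by side below and their likeness is not counted as a result.

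At glucose entry, SLC2A1 (GLUT1, the main glucose transporter of most cells; chromosome 1, 42925353 to 42958893 on GRCh38) stood at 151 and 144 CPM untreated, 175 and 181 with palbociclib, 204 and 198 with indisulam and 484 and 486 with both. The groups did not overlap, and the combination was 3.29-fold over untreated cells (1.72 ± 0.055, adjusted p = 2.56e-12). SLC2A3 reached 18.0 and 23.5 CPM (3.34 ± 0.18). HK2 reached 3.76 and 4.31 CPM (2.72 ± 0.30), still 3.69% of the summed HK1 and HK2 level per kilobase. HK1, the constitutive hexokinase, went from 101 and 95.7 to 119 and 126 CPM (0.31 ± 0.062). The fold of a rare isoenzyme and its weight in the family were thus far apart.

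At the phosphofructokinase step, PFKP, the platelet type subunit, rose from 272 and 229 to 524 and 519 CPM (1.06 ± 0.069). The muscle type PFKM and the liver type PFKL had log2 changes of 0.18 ± 0.071 and 0.28 ± 0.11, and both calls were lost with TMM factors (adjusted p = 0.255 and 0.112). PFKP therefore went from 58.6% to 71.5% of the trio per kilobase. PFKFB4 (chromosome 3, 48517684 to 48562015 on GRCh38) stood at 1.90 and 1.80 CPM untreated, 1.71 and 1.77 with palbociclib, 5.25 and 5.09 with indisulam and 29.6 and 25.9 with both, 14.9-fold over untreated cells (3.90 ± 0.15, adjusted p = 2.25e-11). PFKFB3, the more abundant of the pair, rose from 119 and 109.5 to 514 and 525 CPM (2.18 ± 0.059).

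At the later steps of the pathway the changes differed in size from gene to gene. ENO2, the neuronal type enolase, rose from 66.6 and 60.6 to 170.2 and 160.0 CPM (1.38 ± 0.10), and the far more abundant ENO1 from 1828 and 1688 to 2275 and 2190 CPM (0.34 ± 0.055), so that ENO2 went from 4.22% to 8.26% of the pair per kilobase. ALDOA, PGAM1, PGK1, LDHA and PKM rose by 0.29 to 0.85 on the log2 scale. ALDOA may be counted low, as 42.8% of its exon sequence overlaps another gene on the same strand, but reads lost that way were not measured. Its untreated duplicates were apart at 37.5 and 22.8 CPM. TPI1 fell (-0.28 ± 0.052), GAPDH did not pass the test (-0.03 ± 0.053), and neither did GPI (0.06 ± 0.061) or ALDOC (0.47 ± 0.31). At the lactate end, SLC16A3 rose from 18.6 and 16.8 to 62.3 and 57.8 CPM (1.76 ± 0.087, adjusted p = 2.46e-10). LDHB went from 90.9 and 97.5 to 81.9 and 65.0 CPM (-0.36 ± 0.088), a call that rests on combination replicate 2 (adjusted p = 0.0535 without it).

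In the pyruvate dehydrogenase gate, the inhibiting kinase PDK1 rose from 10.4 and 12.1 to 16.2 and 18.4 CPM (0.62 ± 0.12), while PDHA1, the catalytic subunit that the kinases switch off, fell from 119 and 125 to 95.2 and 95.5 CPM (-0.36 ± 0.058). PDK3 stood at 36.9 and 38.2 CPM and did not pass the test (-0.15 ± 0.093). Of PDHA1 exon sequence, 19.3% overlaps MAP3K15 on the opposite strand.

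In the HIF machinery, EPAS1 (chromosome 2, 46293667 to 46386697 on GRCh38) stood at 162 and 158 CPM untreated and 675 and 714 with the combination (2.12 ± 0.058, adjusted p = 5.18e-13). HIF1A, which encodes HIF-1 alpha, went from 564 and 606 to 855 and 900.4 CPM (0.59 ± 0.06). EPAS1 accordingly went from 16.2% to 35.9% of the 2 alpha subunits per kilobase. Of the prolyl hydroxylases, EGLN3 differed by 0.20 ± 0.068, a call lost with TMM factors (adjusted p = 0.152) and without either combination library (0.0745 and 0.0652). EGLN1 did not pass the test (-0.27 ± 0.16), and 55.8% of its exon sequence overlaps a readthrough gene on the same strand.

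Among the HIF targets, ADM (chromosome 11, 10305073 to 10307397 on GRCh38) rose from 5.51 and 4.60 to 56.1 and 53.5 CPM, 10.8-fold (3.44 ± 0.11, adjusted p = 1.79e-12). P4HA2 and P4HA1, alpha subunits of the prolyl 4-hydroxylase that stabilises collagen, rose from 38.8 and 36.8 to 139.8 and 143 CPM (1.90 ± 0.067) and from 66.8 and 70.3 to 90.3 and 90.6 CPM (0.40 ± 0.064). NDRG1, a stress-responsive growth regulator, rose from 195 and 178 to 330.0 and 333 CPM (0.83 ± 0.057). BNIP3 and BNIP3L, receptors for mitophagy, and the histone demethylase KDM3A rose by 0.62 to 0.80 on the log2 scale. CA12 fell from 3045 and 3222 to 1850 and 1912 CPM (-0.74 ± 0.055, adjusted p = 2.46e-08), the single gene of this group of 10 that did. CA9 and ANKRD37 did not pass the test, and both stayed at or below 1.14 CPM in all A549 libraries. With CA9 at 0.851 and 0.901 CPM and ANKRD37 at 1.14 and 0.644 CPM, only a large change could have been seen.

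**Figure D2:**
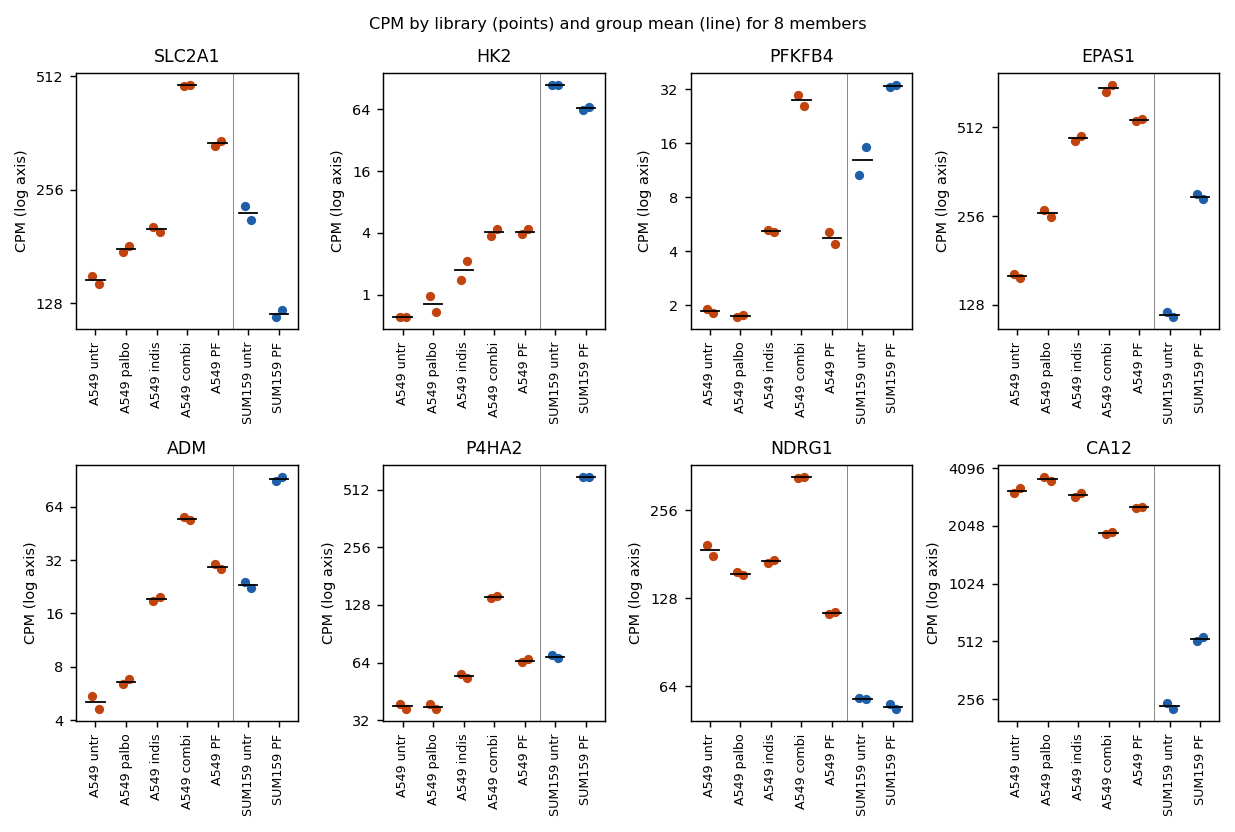
CPM on a logarithmic axis for 8 members, with points for the 2 libraries of each group, a black line for their mean, A549 in orange and SUM159 in blue. SLC2A1, PFKFB4, EPAS1, ADM, P4HA2 and NDRG1 are highest among A549 groups with the combination and CA12 is lowest there, while in SUM159 P4HA2 goes from about 69 to about 595 CPM with PF-06873600 and SLC2A1 and HK2 go down.

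Whether adding the other drug changed the members was read from the combination against each single drug. Against palbociclib alone, 26 members were higher and 6 lower (33.5% and 26.9% of all genes), and against indisulam alone 26 were higher and 3 lower (22% and 23.9% of all genes). In both comparisons 21 members were higher and 3 lower, where 18.8% and 17.5% of all genes were. The 21 were SLC2A1, SLC2A3, HK2, PFKP, PFKFB3, PFKFB4, ALDOA, PGK1, PGAM1, ENO2, SLC16A3, PDK1, EPAS1, EGLN3 and 7 HIF targets, and the 3 were LDHB, PDHA1 and CA12. Against indisulam, the changes were largest for PFKFB4 (2.42 ± 0.13), SLC2A3 (1.61 ± 0.15), ADM (1.5 ± 0.088) and P4HA2 (1.38 ± 0.065) among members above 1 CPM. Of the lower calls against indisulam, those of LDHB and PDHA1 were lost with DESeq2 (adjusted p = 0.108 and 0.213), and LDHB (-0.25 ± 0.088) also lost it without either indisulam library or combination replicate 2 (0.0636 to 0.453). PDHA1 lost the call without any 1 of the 4 libraries compared (adjusted p = 0.0967 to 0.121), and so did the higher call of CA9 (0.0986 to 0.133). Against palbociclib, small calls for PFKM, ENO1 and LDHA (log2 0.15 to 0.18) were lost with TMM factors and with DESeq2, that of ALDOC (1.41 ± 0.35) without combination replicate 1 (adjusted p = 0.0565), and the lower calls of TPI1 and EGLN1 without single palbociclib or combination libraries (0.0788 to 0.215).

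An interaction term asked whether the combination departed from what the single-drug changes add up to in log2 units. It was positive for 18 members and negative for 1, against 10.7% and 14.5% of all genes, and at least 2-fold for 6, where 2.86% of all genes were that far above the sum. Of the HIF targets, 8 of 10 were above and 1 below the sum (median 0.86, all genes -0.021). Glycolysis had 8 of 22 above (median 0.30). NDRG1 and P4HA1 rose with the combination, while neither rose with a single drug. Of their single-drug changes, only the fall of P4HA1 with indisulam was a call kept under every alternative. NDRG1 stood at 195 and 178 CPM untreated, 157 and 153 with palbociclib, 169 and 173 with indisulam and 330.0 and 333 with both, and its interaction was 1.22 ± 0.081 (adjusted p = 7.78e-08). P4HA1 stood at 66.8 and 70.3, 64.9 and 64.8, 43.3 and 47.1 and 90.3 and 90.6 CPM in the same order, with indisulam alone lowest and the combination highest, and an interaction of 1.08 ± 0.092.

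P4HA2 and PFKFB4 showed no change with palbociclib past the threshold and a gain when it joined indisulam. The interaction was 1.38 ± 0.10 for P4HA2 (adjusted p = 1.34e-07) and 2.51 ± 0.28 for PFKFB4 (adjusted p = 1.3e-05). SLC2A1 (1.00 ± 0.077), ADM (1.11 ± 0.17), SLC16A3 (0.88 ± 0.13), PDK1 (0.65 ± 0.17), BNIP3 (0.64 ± 0.10) and KDM3A (0.61 ± 0.11) were also above the sum. CA12 was the member below it (-0.86 ± 0.077, adjusted p = 1.56e-06), with a small rise under palbociclib and a fall under both drugs. For EPAS1 and PFKFB3, which rose with each drug, the interaction did not pass the test (-0.14 ± 0.079 and 0.04 ± 0.08), nor did that of SLC2A3 (0.42 ± 0.28). The CA9 interaction (2.54 ± 0.82) rested on 4 to 14 counts per library and was lost when any 1 of 7 libraries was left out (adjusted p = 0.0559 to 0.106), and the calls of PFKP, PGK1, PGAM1, PDK1 and GAPDH (log2 0.24 to 0.65) were lost without at least 1 library (adjusted p = 0.0507 to 0.126).

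**Figure D3:**
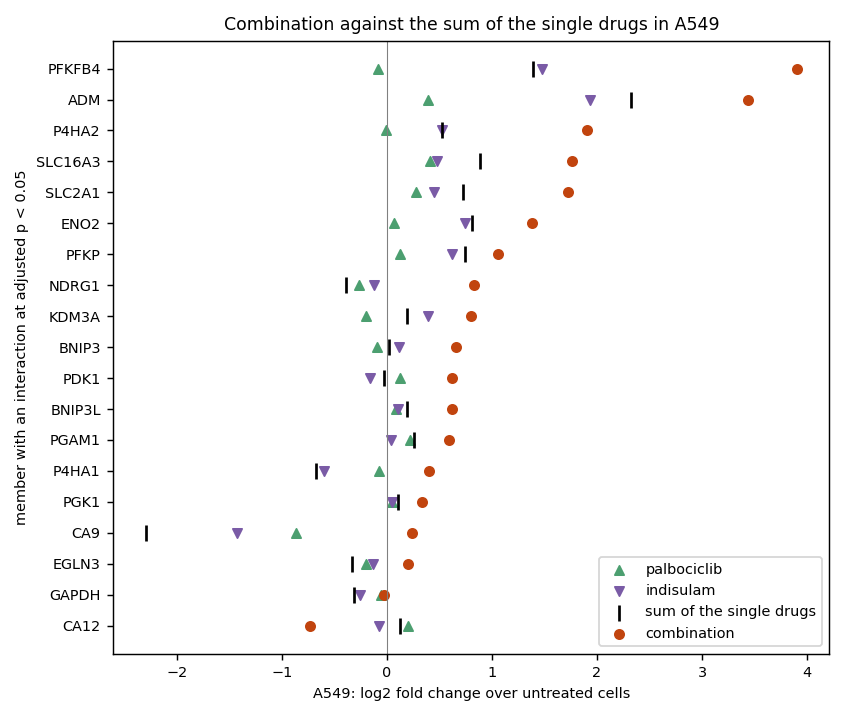
For the 19 members with an interaction past the threshold, triangles mark the log2 change with palbociclib (pointing up) and with indisulam (pointing down) against untreated A549, a bar marks their sum and an orange circle the combination. The circle lies to the right of the bar for 18 members and to its left for CA12, and the gap is widest for PFKFB4 and CA9.

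PF-06873600 in A549 gave 24 members higher and 6 lower, against 28.5% and 27.8% of all genes, with 10 up and 2 down at least 2-fold (10.7% and 7.04% of all genes). Among glycolysis members 18 of 22 were higher and 1 lower (median 0.52, all genes -0.0082), while the HIF targets had 3 higher and 3 lower (median 0.031). HK2 went from 0.612 and 0.600 to 3.90 and 4.33 CPM (2.75 ± 0.30), SLC2A1 to 335 and 346 CPM (1.21 ± 0.055, adjusted p = 2.33e-10) and SLC2A3 to 7.12 and 6.18 CPM (1.69 ± 0.21). Further down, PFKP reached 607 and 606 CPM (1.28 ± 0.069), PFKFB3 482 and 485 CPM (2.08 ± 0.059), PFKFB4 5.13 and 4.39 CPM (1.35 ± 0.20), ENO2 143 and 142 CPM (1.16 ± 0.10) and SLC16A3 42.2 and 45.1 CPM (1.30 ± 0.089). The abundant enzymes GPI, PKM, LDHA and ENO1 rose by 0.44 to 0.48, HK1 by 0.56 and PGAM1 by 0.84 on the log2 scale, and all of these groups were apart from the untreated libraries. The 39 members summed to 2.62% and 2.66% of all counts, against 2.12% to 2.20% untreated. The drug was given for 7 days and the combination for 10, so the values of the 2 treatments are set side by side without a test.

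EPAS1 and ADM rose with PF-06873600 too, to 540.0 and 546 CPM (1.76 ± 0.058) and 30.3 and 28.3 CPM (2.53 ± 0.11). P4HA2 rose to 64.2 and 66.4 CPM (0.79 ± 0.069). NDRG1, by contrast, fell from 195 and 178 to 113 and 114 CPM (-0.72 ± 0.059, adjusted p = 1.12e-07), where the combination had raised it, and CA12 fell to 2534 and 2584 CPM (-0.29 ± 0.055). PDK3 fell to 30.4 and 30.5 CPM (-0.45 ± 0.095) while PDK1 rose to 19.0 and 18.4 CPM (0.73 ± 0.11). The remaining lower calls were of low or small size. ALDOC had 6 and 14 counts against 30 and 26 untreated, and its call was lost without PF-06873600 replicate 1 (adjusted p = 0.0611). CA9 had 0 and 6 counts against 11 and 11, and its call was lost without that library (adjusted p = 0.183), without either untreated library (0.0652 and 0.063) and with DESeq2 (0.114). EGLN3 (-0.22 ± 0.07) and the rise of GAPDH (0.15 ± 0.053) were lost without either PF-06873600 library (adjusted p = 0.0911 and 0.0615 for EGLN3, 0.0759 and 0.16 for GAPDH).

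The same drug, dose and time in SUM159 gave another picture. Of the 39 members, 14 were higher (35.9%) and 15 lower (38.5%), near the 38.1% and 35.6% of all genes. At least 2-fold, 6 of the 39 rose, where 19.8% of all genes did. These counts say little of the members as a whole. Glycolysis had 5 of 22 higher and 12 lower (median -0.19, all genes 0.020), and HIF targets 6 of 10 higher and 1 lower (median 0.55). The members summed to 1.78% and 1.79% of all counts with the drug and 2.09% to 2.23% without.

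SLC2A1 fell from 231 and 213 to 117 and 123 CPM (-0.89 ± 0.058, adjusted p = 3.01e-09). LDHA fell from 2696 and 2453 to 1472 and 1391 CPM (-0.85 ± 0.078) and ENO1 from 4014 and 3771 to 2227 and 2253 CPM (-0.80 ± 0.079). These are among the most abundant glycolytic transcripts of this line, and neither overlapped between the groups. HK2 fell from 110.4 and 109 to 63.1 and 66.9 CPM (-0.75 ± 0.056), PFKP from 426 and 406 to 277 and 272 CPM (-0.60 ± 0.057), and GPI, TPI1, ALDOA, PGAM1, GAPDH, LDHB and HK1 fell with log2 changes between -0.48 and -0.18. HK1 and GAPDH lost the call without either treated library (adjusted p = 0.103 and 0.264 for HK1, 0.111 and 0.0992 for GAPDH) and LDHB without treated replicate 1 (0.2) and with DESeq2 (0.0897). HK2 went from 20.6% to 14.8% of the HK1 and HK2 level per kilobase and PFKP from 63.9% to 50.6% of the phosphofructokinase trio. The 5 glycolysis members that rose were PFKFB4 (10.6 and 15.2 to 33.1 and 33.9 CPM, 1.38 ± 0.12), SLC16A3 (0.58 ± 0.065), SLC2A3 (0.41 ± 0.069), PFKL (0.32 ± 0.055) and ENO2 (0.27 ± 0.084). The ENO2 call was lost with DESeq2 (adjusted p = 0.0858) and without untreated replicate 1 (0.0741).

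In the other groups of SUM159, P4HA2 (chromosome 5, 132190147 to 132295315 on GRCh38) rose from 69.8 and 67.9 to 597 and 594 CPM, 8.65-fold (3.11 ± 0.061, adjusted p = 9.49e-15). Of its exon sequence, 5.41% overlaps an antisense RNA. ADM rose from 24.0 and 22.2 to 89.8 and 94.3 CPM (2.00 ± 0.069), P4HA1 from 69.9 and 67.6 to 159 and 149.7 CPM (1.17 ± 0.056), CA12 from 244 and 226 to 512 and 537 CPM (1.16 ± 0.061) and EPAS1 from 121 and 116 to 303 and 292 CPM (1.33 ± 0.056). All of these were apart from the untreated libraries. KDM3A had a small call (0.19 ± 0.082) that was lost with no filter, with DESeq2 and without untreated replicate 1 or either treated library (adjusted p = 0.068 to 0.283). BNIP3L rose (0.91 ± 0.075) while its relative BNIP3 fell (-0.30 ± 0.062). CA9 stood at 9.05 and 9.27 CPM untreated and 7.31 and 8.79 CPM treated, groups that did not overlap but whose difference did not pass the test (-0.18 ± 0.14). With CA12 higher, CA9 went from 14.6% to 6.29% of the pair per kilobase. PDK3 rose (0.87 ± 0.15) and PDK1 (-0.24 ± 0.077) and PDHA1 (-0.55 ± 0.058) fell, the PDK1 call being lost with DESeq2 (adjusted p = 0.0846) and without treated replicate 1 (0.0895).

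How far the lines differed in their response was tested directly with an interaction term in 1 model of all 14 libraries. The response was higher in SUM159 for 9 members and lower for 23, against 25.8% and 27.2% of all genes. Of the 22 glycolysis members, 17 responded lower in SUM159 and 1, ALDOC, higher (median -0.82, all genes 0.035). Of the 10 HIF targets, 6 responded higher and 2 lower (median 0.82). Of the 32 calls, 31 were kept under every alternative run, and that of CA9 was lost in 7 of them (adjusted p = 0.0551 to 0.303).

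Members that rose in A549 and fell in SUM159 numbered 12 (30.8% of 39), against 10.5% of the 13607 genes tested in both lines. They were SLC2A1, HK1, HK2, GPI, PFKP, ALDOA, GAPDH, PGAM1, ENO1, LDHA, PDK1 and BNIP3, and each had an interaction past the threshold, from -3.51 ± 0.26 for HK2 and -2.10 ± 0.081 for SLC2A1 to -0.51 ± 0.082 for GAPDH. Of these 12, GAPDH lost its call in each line under at least 1 alternative, and HK1 and PDK1 lost theirs in SUM159 (adjusted p up to 0.264). Members higher in both lines numbered 8 (20.5%), against 13.4% of all genes, and were SLC2A3, PFKL, PFKFB4, ENO2, SLC16A3, EPAS1, ADM and P4HA2. The ENO2 call in SUM159 was lost under at least 1 alternative. Within these 8, PFKFB4 (0.03 ± 0.31) and PFKL (-0.07 ± 0.13) had no difference between lines past the threshold, with intervals of -0.58 to 0.64 and -0.34 to 0.19 on the log2 scale (95%, from the SE). P4HA2 responded more in SUM159 (2.32 ± 0.085, adjusted p = 1.1e-13) and SLC2A3, ENO2, SLC16A3, EPAS1 and ADM more in A549. CA12, EGLN3 and PDK3 fell in A549 and rose in SUM159, 3 of 39 (7.69%) against 9.3% of all genes, a share near the background. The EGLN3 call in A549 was lost under at least 1 alternative. PFKFB3 rose in A549 and did not pass the test in SUM159, with 40.0 and 37.9 CPM untreated and 43.6 and 42.8 treated in SUM159 and an interaction of -1.93 ± 0.086.

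**Figure D4:**
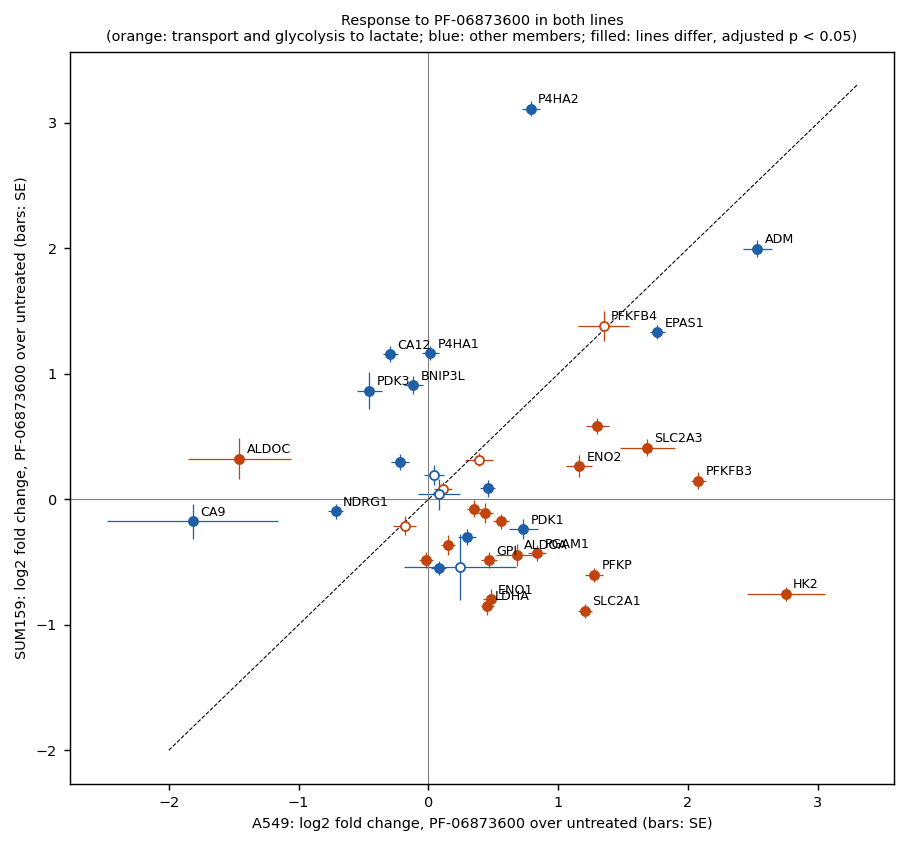
Log2 fold change with PF-06873600 in A549 (x axis) and SUM159 (y axis), with bars for the SE, orange for the 22 members from glucose transport to lactate export, blue for the other 17 and a filled point where the interaction passed the threshold. Most orange points lie below the dashed line of equal response, with HK2 farthest from it, while P4HA2, P4HA1, CA12 and BNIP3L lie above it.

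Isoenzyme balance shifted with treatment in both lines, and the shares within families are descriptions without a test of their own. With PF-06873600, EPAS1 went from 16.2% to 32.3% of the HIF alpha level per kilobase in A549 and from 8.72% to 18.4% in SUM159. PFKP went from 58.6% to 74.2% of the phosphofructokinases in A549 and from 63.9% to 50.6% in SUM159. PDK1 went from 24.1% to 41.9% of the pair in A549 and from 86.2% to 74.5% in SUM159. In the glucose transporter pair, SLC2A3 went from 1.26% to 1.75% in A549 and from 15.5% to 31.2% in SUM159.

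**Figure D5:**
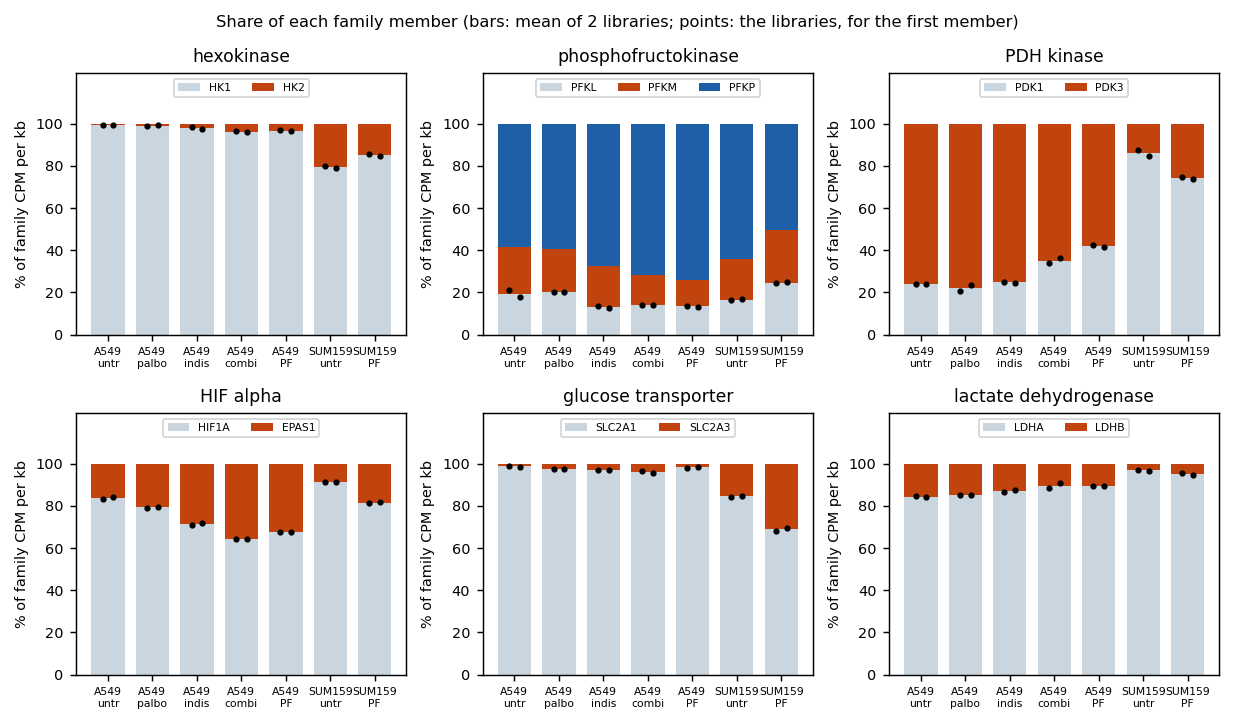
Stacked bars give the share of each isoenzyme in the summed CPM per kilobase of the members of its family that are shown (percent, mean of 2 libraries) for the 7 groups. Points give the library values of the lowest segment. EPAS1 takes a larger share in every treated group than in untreated cells of its line, and the PFKP and PDK1 segments are larger with the combination and PF-06873600 than untreated in A549, and smaller with PF-06873600 than untreated in SUM159.

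Other genes of the same pathways were read from 4 lists, which were drawn up with earlier results of these data known. Of 38 further HIF targets, 37 were tested in A549, and with the combination 25 were higher and 4 lower (median 0.60), where 35.1% and 30% of all genes were. Among those higher were the chemokine receptor CXCR4, from 0.505 to 10.6 CPM, and LOX, which crosslinks collagen, from 0.302 to 5.57 CPM. With PF-06873600 the list had 17 higher and 7 lower in A549 (28.5% and 27.8% of all genes) and 20 higher and 10 lower of 36 in SUM159 (38.1% and 35.6% of all genes). In SUM159 LOX rose from 18.6 to 171 CPM (3.20 ± 0.065), CCNG2 from 5.47 to 41.8 CPM and the mitochondrial adenylate kinase AK4 from 6.39 to 31.7 CPM. Of 30 further genes of glycolysis and its branches, 19 were tested in A549, with 7 higher and 7 lower under the combination, shares near those of all genes (35.1% and 30%). They included the transporter SLC2A12 (1.14 to 11.9 CPM), the phosphatase TIGAR (8.70 to 29.3 CPM) and mitochondrial PCK2, which fell from 142 to 18.7 CPM (-2.93 ± 0.086).

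In SUM159 with PF-06873600, 8 of 18 were higher and 4 lower, against 38.1% and 35.6% of all genes, with SLC2A10 (2.27 to 18.5 CPM) and BPGM (20.9 to 49.1 CPM) up and the monocarboxylate transporter SLC16A7 down (80.7 to 37.6 CPM). Of 12 further genes of the pyruvate gate, 1 was higher and 5 lower with the combination (35.1% and 30% of all genes). In this list the inhibiting kinase PDK4 fell from 131 to 36.1 CPM (-1.86 ± 0.063). The mitochondrial pyruvate carrier subunits MPC1 and MPC2 fell from 8.79 to 3.80 and from 66.6 to 44.8 CPM. In SUM159, 4 were higher and 6 lower (38.1% and 35.6% of all genes), with PDK2 up (10.6 to 27.9 CPM) and the phosphatase subunit PDP2 (50.4 to 30.3 CPM) and the complex subunit DLAT (131 to 79.4 CPM) down. Of 15 further genes of HIF regulation, 14 were tested, and with the combination 6 were higher and 5 lower, again near the shares of all genes. EGLN2, another HIF prolyl hydroxylase, rose from 4.69 to 9.82 CPM, while VHL, which recognises hydroxylated HIF alpha, fell from 83.7 to 53.0 CPM and the ligase SIAH1 from 29.1 to 17.8 CPM. In SUM159 with PF-06873600, 5 were higher and 6 lower, near the 38.1% and 35.6% of all genes, with CITED2, a competitor for the HIF coactivators, at 103 and 165 CPM, and the coactivators CREBBP and EP300 lower, from 111 to 74.1 and from 99.9 to 68.9 CPM.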

How the data were processed

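Strand-specific poly(A) RNA libraries were sequenced as single-end reads, aligned to GRCh38 with HISAT2 2.2.1 and counted with HTSeq, per the submitters' processing notes; the annotation release and the strand setting of the counting are not given in the sources used here. The authors deposited whole-number read counts for 60683 Ensembl identifiers per library, without normalization, and 9 summary lines that were left out of totals. Reads set aside for low mapping quality equalled 10.3% to 13.9% of gene counts and ambiguous reads 3.68% to 4.40%. Genes with near-identical copies, pseudogenes or overlapping neighbours can therefore be counted low. No read was marked as a duplicate and reads carry no molecular identifiers.

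Symbols, coordinates and exon lengths came from GENCODE release 44, which named 60370 identifiers. Counts were tested with edgeR 4.0.16 in R 4.3.3 (filterByExpr, library totals as size, quasi-likelihood F test, Benjamini-Hochberg adjustment over all genes, threshold 0.05) in models of 10 A549 libraries (15780 genes), 4 SUM159 libraries (15055 genes) and all 14 (17279 genes), and the script was tested on simulated data. Each SE was obtained from the size of the log2 change and the root of its F statistic, and groups were compared by treatment within a line, by line, and by 2 interaction terms, 10 comparisons in all.

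The members and the lists of further genes were chosen with earlier results of these data known. Every member could be named, with library values for those changed at least 2-fold without overlap and for isoenzymes. Of each further list, up to 3 genes with the largest called change and at least 5 CPM in the higher group were named for the combination and for PF-06873600 in SUM159. A gene that this rule selects is not reported here. Alternatives were TMM factors, DESeq2 1.42.0, no filter, only the compared groups, the replicate number as a block, and each library left out. Replicate numbers come from the labels, and nothing in these ties libraries of equal number to a shared handling. Figures used matplotlib 3.10.9 in Python 3.11.15.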

Additional observations from a re-analysis of the deposited data

Results flagged for a closer look

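The response to PF-06873600 differed between SUM159 and A549 for 32 of the 39 members, by the interaction term of edgeR's quasi-likelihood test in 1 model of both lines (53% of all genes tested had such a difference). Values are the log2 change in SUM159 minus that in A549. Among transport and glycolysis genes it was lower in SUM159 for HK2 (-3.51), SLC2A1 (-2.10), PFKFB3 (-1.93), PFKP (-1.88), LDHA (-1.30), ENO1 (-1.28), SLC2A3 (-1.27), PGAM1 (-1.27) and ALDOA (-1.12), all at least 2-fold apart, and for GPI (-0.95), ENO2 (-0.90), HK1 (-0.74), SLC16A3 (-0.72), PKM (-0.55), GAPDH (-0.51), TPI1 (-0.47) and PGK1 (-0.42). Among the other members it was lower for PDK1 (-0.97), PDHA1 (-0.63), BNIP3 (-0.60), ADM (-0.54), EPAS1 (-0.43) and HIF1A (-0.37). It was higher in SUM159 for BNIP3L (1.03), P4HA1 (1.15), PDK3 (1.32), CA12 (1.45), CA9 (1.64), ALDOC (1.78) and P4HA2 (2.32) and, less than 2-fold, for EGLN3 (0.52) and NDRG1 (0.62). The value of CA9 rests on 0 and 6 counts in treated A549 and was lost without PF-06873600 replicate 1 of that line (adjusted p = 0.303). The lines were grown in different media, so line and medium cannot be told apart. With 2 libraries per group, no check of single libraries against their group was made.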

How the results depend on the processing

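Of the 271 calls of members over the 10 comparisons, 229 were kept under every alternative run, 42 were lost under at least 1, and none changed direction. The line difference in untreated cells lost 0 of 36 calls. Some counts moved by over 1.5 times. For palbociclib, 11 higher and 1 lower became 3 and 0 with only the compared groups in the model, and 2 were lower with no filter. For indisulam, 4 lower became 8 with TMM factors. For the combination against indisulam, 3 lower became 1 with DESeq2. For the interaction of both drugs, 1 lower became 3 with no filter. The cause was not tested.

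Leaving out 1 library at a time gave ranges of 5 to 16 higher (5 without palbociclib replicate 1) and 0 to 2 lower for palbociclib, 15 to 18 and 3 to 8 for indisulam (8 without untreated replicate 2), 25 to 29 and 3 to 5 for the combination, 22 to 24 and 4 to 5 for it against palbociclib, 25 and 1 to 2 against indisulam, 13 to 21 and 1 to 5 for the interaction (5 without untreated replicate 2), 23 to 25 and 3 to 7 for PF-06873600 in A549 (3 without its replicate 1), 13 to 15 and 11 to 17 in SUM159, 23 and 13 to 14 between untreated lines, and 8 to 9 and 23 to 24 for the line difference in response.

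Same-numbered libraries deviated together in some groups and against each other in others. Correlations across genes were 0.289 for untreated and indisulam A549 and 0.308 for palbociclib A549 and untreated SUM159. Across those pairs they were negative, from -0.317 for untreated and palbociclib A549 to -0.266 for untreated A549 and untreated SUM159. All others lay between -0.121 and 0.0861. The numbers as given thus do not pair the libraries, and what the correlated groups share was not tested. With the replicate number as a block, PKM and PDK3 (palbociclib, adjusted p = 0.0504 and 0.0571) and EGLN1 (combination against palbociclib, 0.0505) lost the call, and no other call changed. With crossed numbers, chosen after the data were seen, 1556 genes were higher and 1467 lower with palbociclib. The numbers as given had 1258 and 1079, and the model without a block 1310 and 1168. The crossed block called 13 members higher, against 9 as given and 11 without a block. Relative to the latter, PGAM1 and LDHA were added (adjusted p = 0.0229 and 0.043). Between untreated lines the counts were 7224 and 6351 crossed, 7200 and 6323 as given, and 7242 and 6365 without a block. Depth limits CA9, ANKRD37, HK2 and ALDOC in A549, where libraries held as few as 0 to 9 counts.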
